A study of Mus musculus with 26 samples.

Results

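Genes that mark the macrophages of the brain's borders, 10 in all, were followed through the sorted microglia of this series. They are Mrc1, Stab1, Dab2, Folr2, Lyve1, Cd163, Clec10a, Pf4, F13a1 and Cbr2. They were chosen by symbol and by no rule on their values, though earlier results of these data were known. All 10 are among the 31053 genes listed in the deposited tables. All 10 also passed the filter on low counts when the 18 libraries were fitted together. The libraries came from somatosensory cortex of wild-type C57Bl/6N mice, with meninges removed. Antibodies were used to sort cells positive for Cd11b and Cx3cr1 and low for Cd45. Shares of cells below are thus shares of the sorted cells and not of the tissue. Dams were injected intraperitoneally at E12.5 with saline or with poly(I:C), an RNA analogue used to imitate viral infection and to induce maternal immune activation (MIA). Offspring were collected at E13.5 and E15.5 (E13 and E15 in the labels), with 3 saline and 3 MIA libraries at each age, and at P14, with 4 saline and 2 MIA libraries. Each embryonic library pooled several embryos, whose sex was not determined. The paper states that its saline and MIA samples held cells of both sexes. It also counts 4 saline and 2 MIA mice at P14, as many as the libraries, so a P14 library may come from its own mouse. Labels give a sex only for replicate 3 of the P14 saline group, a female library (3F) and a male library (3M). Since nothing ties each library to its own litter, p-values measure the spread between libraries only.

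Border macrophages live in the meninges, around blood vessels and in the choroid plexus, next to the microglia of the parenchyma. Both arise from yolk sac macrophages, and the border cells keep a programme of receptors for endocytosis and scavenging that mature microglia largely lack. Mrc1 encodes the mannose receptor (CD206), Stab1 the scavenger receptor stabilin-1, Folr2 a folate receptor, Lyve1 a hyaluronan receptor, Cd163 the receptor for haptoglobin-hemoglobin complexes and Clec10a a lectin for galactose-type sugars. Dab2 encodes a clathrin adaptor of endocytosis, Pf4 a chemokine also stored in platelets, F13a1 the A subunit of coagulation factor XIII and Cbr2 a carbonyl reductase.

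On the GRCm38 assembly (GENCODE M21 annotation) the genes lie on 8 chromosomes. Mrc1 is at chr2:14229392-14332057, Pf4 at chr5:90772435-90773383, Folr2 at chr7:101839988-101857194, Lyve1 at chr7:110850607-110863239, Cbr2 at chr11:120729489-120732114 and Stab1 at chr14:31139013-31168641. Cd163 is at chr6:124304656-124330527, Clec10a at chr11:70156197-70170834, F13a1 at chr13:36867178-37050244 and Dab2 at chr15:6299788-6440712. RefSeq start sites on GRCm38.p6 were matched for 8 of the 10 genes, with 11 start sites in all. The 250 bases before a RefSeq start are shown for 4 genes that were called between ages below, and another window of Folr2 is not shown. RefSeq and GENCODE starts can differ, and the windows shown for Mrc1, Folr2 and Cbr2 partly overlap the GENCODE bounds above. They are written 5′ to 3′ on the strand of the gene, and capitals mark GAGGAA, a core bound by the macrophage factor PU.1, or TGCTGA, a core bound by MAF factors, on either strand (TTCCTC and TCAGCA are the reverse complements). The windows are chr2:14229164-14229413 on the plus strand (Mrc1), chr7:101857191-101857440 on the minus strand (Folr2), chr14:31168642-31168891 on the minus strand (Stab1) and chr11:120732022-120732271 on the minus strand (Cbr2).
Mrc1: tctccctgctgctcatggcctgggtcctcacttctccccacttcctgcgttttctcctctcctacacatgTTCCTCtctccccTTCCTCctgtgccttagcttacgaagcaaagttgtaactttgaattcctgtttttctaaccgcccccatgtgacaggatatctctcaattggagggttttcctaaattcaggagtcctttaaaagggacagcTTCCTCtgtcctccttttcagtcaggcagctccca
Folr2: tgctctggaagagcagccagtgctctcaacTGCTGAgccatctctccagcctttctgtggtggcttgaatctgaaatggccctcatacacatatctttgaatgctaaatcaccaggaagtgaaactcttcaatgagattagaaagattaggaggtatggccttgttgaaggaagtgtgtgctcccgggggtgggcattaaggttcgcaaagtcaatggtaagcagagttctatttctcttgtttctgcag
Stab1: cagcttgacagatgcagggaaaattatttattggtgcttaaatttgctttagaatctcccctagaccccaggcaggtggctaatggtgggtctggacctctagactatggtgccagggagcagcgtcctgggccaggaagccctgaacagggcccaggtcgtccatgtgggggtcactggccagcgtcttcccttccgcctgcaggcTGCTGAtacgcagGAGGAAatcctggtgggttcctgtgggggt
Cbr2: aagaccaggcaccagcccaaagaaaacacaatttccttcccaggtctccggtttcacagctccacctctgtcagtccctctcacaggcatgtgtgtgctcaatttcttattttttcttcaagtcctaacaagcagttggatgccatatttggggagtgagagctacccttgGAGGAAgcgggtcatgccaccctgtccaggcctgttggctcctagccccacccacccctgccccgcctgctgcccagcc
GAGGAA was found in 7 of the 11 windows, from 6 of the 8 genes (Cbr2, Dab2, F13a1, Mrc1, Pf4 and Stab1), against 23.3% of 32851 windows of the same length before RefSeq starts. TGCTGA was found in 4 of the 11 windows, from Dab2, Folr2 and Stab1, against 16.1% of all windows. These matches are letters in a window and not measured binding.

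The libraries held 280 to 6375 cells and 6160925 to 105751888 UMIs (unique molecular identifiers, 1 per captured RNA molecule). All 15 genes of a microglia list were detected in all 18 libraries. Their summed level was 9172 to 9812 CPM (UMIs per 1000000 UMIs of the library) at E13.5, 14051 to 18391 CPM at E15.5 and 39365 to 42376 CPM at P14. Platelet and megakaryocyte genes summed to 1.35 to 13.3 CPM in the embryonic libraries, and Ppbp was at 0 in 1 E13.5 library and in 5 P14 libraries. Genes of neurons summed to 49.6 to 209 CPM at E13.5, 181 to 2272 CPM at E15.5 and 19.0 to 47.7 CPM at P14. Some libraries shared cell barcodes. Of the cells of E15.5 MIA 3, 238 (16.2%, with 10.2% of its UMIs) had a barcode that held more UMIs in another library, and for 229 of them that library was E13.5 MIA 2. The same held for 304 cells of P14 saline 3F and 282 of P14 saline 3M, which carried 8.19% and 6.09% of the UMIs of those libraries, and for 257 and 238 of them that library was also E13.5 MIA 2. In P14 saline 1 and P14 MIA 1, 107 of 178 and 132 of 213 such cells had their larger copy in E13.5 MIA 1. The levels of P14 in all cells may thus hold RNA of embryonic cells, which was not tested. In the 15 libraries other than E15.5 MIA 3, P14 saline 3F and P14 saline 3M, these cells held at most 2.23% of the UMIs. This counts only the copies with fewer UMIs. In E13.5 MIA 1 and MIA 2, 136 of 280 and 263 of 375 cells had a barcode also found in another library. Only 1 and 4 of these cells were left out when shared barcodes were removed, so that removal hardly changed these libraries. Results are given for all cells, and some of the values that moved without the shared barcodes are given beside them.

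Mrc1 fell between E15.5 and P14. In saline libraries it stood at 373, 159 and 125 CPM at E13.5 (replicates 1 to 3), at 151, 198 and 156 CPM at E15.5, and at 60.8, 65.7, 88.3 and 92.1 CPM at P14 (replicates 1, 2, 3F and 3M). The P14 libraries all lay below the E15.5 libraries, while E13.5 and E15.5 overlapped. The log2 fold change was -1.32 ± 0.40 (SE) from E15.5 to P14 (adjusted p = 0.0120, edgeR's quasi-likelihood test with Benjamini-Hochberg adjustment over all genes) and -0.39 ± 0.42 from E13.5 to E15.5 (adjusted p = 0.537, edgeR). After MIA, Mrc1 stood at 383, 239 and 139.7 CPM at E13.5, at 76.6, 250.2 and 139 CPM at E15.5 and at 59.4 and 49.9 CPM at P14. It fell there too from E15.5 to P14, by 1.66 ± 0.51 on the log2 scale (adjusted p = 0.0166, edgeR), a call lost without E15.5 MIA 2 (log2 fold change -1.09) or without either P14 MIA library. Over all 5 fits that left out a library the log2 fold change ran from -1.97 to -1.09. Fits with a lone P14 MIA library assume that it varies like the libraries of the other groups. Summed UMIs cannot tell fewer cells with the gene from less of its RNA per cell. The share of cells given further on addresses this in part.

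Stab1 fell less than Mrc1. Saline libraries had 400.3, 239.9 and 204 CPM at E13.5, 244, 331 and 253 CPM at E15.5, and 171, 188, 202 and 189 CPM at P14. The P14 libraries lay below the E15.5 libraries. The log2 fold change from E15.5 to P14 was -0.74 ± 0.24 (adjusted p = 0.0169, edgeR), and the call was lost without E15.5 saline 2 (log2 fold change -0.54). After MIA, Stab1 went from 213, 313 and 265 CPM at E15.5 to 188 and 196 CPM at P14, which did not pass the test (log2 fold change -0.61 ± 0.29, adjusted p = 0.108, edgeR).

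Dab2 had 332, 129 and 109 CPM in saline libraries at E13.5, 84.2, 95.8 and 85.6 CPM at E15.5, and 28.2, 28.2, 40.6 and 37.4 CPM at P14. No library of a later age reached the lowest of the age before it. The fall from E15.5 to P14 was 1.58 ± 0.38 on the log2 scale (log2 fold change -1.58, adjusted p = 0.00269, edgeR). The step from E13.5 to E15.5 just missed the threshold in saline libraries (log2 fold change -1.11 ± 0.40, adjusted p = 0.0605, edgeR) and was called by DESeq2 (adjusted p = 0.0238), which called 11.9% of all genes lower. After MIA, Dab2 fell at both steps. It went from 371, 202 and 105 CPM at E13.5 to 61.1, 113 and 87.2 CPM at E15.5 (log2 fold change -1.39 ± 0.41, adjusted p = 0.0189, edgeR), with overlap between the ages, and to 29.4 and 29.0 CPM at P14 (log2 fold change -1.73 ± 0.48, adjusted p = 0.00993, edgeR). The earlier MIA call was lost without E13.5 MIA 1 (log2 fold change -0.77) or E15.5 MIA 1, and the later one without either P14 MIA library, though its log2 fold change stayed between -1.91 and -1.45.

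Folr2 had the lowest fold change of the 10 genes from E15.5 to P14. Saline libraries had 39.8, 14.8 and 14.3 CPM at E13.5, 16.4, 17.4 and 11.1 CPM at E15.5, and 0.676, 0.697, 1.75 and 1.28 CPM at P14. MIA libraries had 37.3, 21.3 and 17.2 CPM, then 19.6, 15.7 and 8.74 CPM, then 0.807 and 0.646 CPM. Every P14 library was far below every embryonic library. From E15.5 to P14 the log2 fold change was -3.95 ± 0.44 after saline (adjusted p = 4.6e-06, edgeR) and -4.50 ± 0.61 after MIA (adjusted p = 5.4e-05, edgeR). The call held in all 7 saline fits and all 5 MIA fits that left out a library. Without the shared barcodes, P14 saline 1, 2, 3F and 3M had 0.459, 0.702, 0.0864 and 0.430 CPM, and the saline log2 fold change was -5.34 ± 0.52 (adjusted p = 6.3e-07, edgeR). Much of the Folr2 in the 3F and 3M libraries was therefore carried by barcodes seen with more UMIs elsewhere.

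Lyve1, Pf4 and F13a1 varied more between the E13.5 libraries of a treatment than Mrc1, Stab1, Dab2 and Folr2. Lyve1 had 151, 4.87 and 1.10 CPM in the saline libraries and 111, 26.9 and 2.59 CPM in the MIA libraries at E13.5. Pf4 had 444, 34.3 and 15.6 CPM after saline and 529, 126 and 31.2 CPM after MIA. F13a1 had 159, 8.38 and 2.98 CPM after saline and 170.2, 90.4 and 3.56 CPM after MIA. For all 3 genes, replicate 1 of each treatment was highest and MIA 2 came next. The highest saline library exceeded the lowest 137-fold for Lyve1, 28.5-fold for Pf4 and 53.3-fold for F13a1, against 2.98-fold for Mrc1 and 1.96-fold for Stab1. Mrc1, Dab2, Stab1, Folr2 and Clec10a were highest in replicate 1 of both treatments as well. Saline 1, MIA 1 and MIA 2 were also the libraries with the fewest cells at this age (1204, 280 and 375, against 1846 to 6375). Of the cells of MIA 1 and MIA 2, 136 and 263 had a barcode also found in another library. The part of cell number or of shared barcodes in these levels was not tested.

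At E15.5, Pf4 had 68.0, 54.5 and 8.11 CPM after saline and 18.2, 98.8 and 18.9 CPM after MIA. F13a1 had 1202 of 77548598 UMIs in saline 1, 14.6 and 4.60 CPM in saline 2 and 3, and 2.34, 36.7 and 10.4 CPM after MIA, and Lyve1 had 11.9, 8.31 and 1.18 CPM and then 1.30, 20.1 and 2.47 CPM. MIA 2 was the highest library for each of the 3. In E15.5 MIA 3 most of these UMIs lay in shared barcodes, and without them Pf4 had 6.71 CPM (100 of 313 UMIs), F13a1 1.28 CPM (19 of 173 UMIs) and Lyve1 0.134 CPM (2 of 41 UMIs) there. At P14, Pf4 had 8.97, 6.55, 11.1 and 8.98 CPM after saline and 12.3 and 4.12 CPM after MIA, so that E15.5 saline 3 lay within the P14 range. F13a1 had 2.07, 1.63, 6.43 and 5.28 CPM after saline and 2.39 and 1.75 CPM after MIA at P14, and Lyve1 had 1.40, 0.0775, 1.59 and 2.72 CPM and then 1.80 and 0.984 CPM. Both ranges overlapped those of E15.5. Without the shared barcodes, Pf4 had 3.99, 6.59, 1.08 and 2.29 CPM after saline and 6.04 and 4.10 CPM after MIA at P14. F13a1 then had 0.643, 1.64, 0.259 and 1.07 CPM after saline and 0.750 and 1.77 CPM after MIA. Lyve1 had 0.688, 0.0780, 0 and 1.40 CPM and then 0.675 and 0.993 CPM, where 0 UMIs allows up to 0.130 CPM. The P14 female saline library was lowest for each of the 3. In the main fit, which took its spread from all 18 libraries, E13.5 included, none of the 3 genes passed the test between ages in all cells. For saline P14 against E15.5, a fit on the compared libraries alone called 8 of the 10 members, given with the share of all genes in the section on processing. The log2 fold changes from E15.5 to P14 in saline libraries were -2.50 ± 1.08 for Pf4 (adjusted p = 0.0659, edgeR), -1.78 ± 1.22 for F13a1 (adjusted p = 0.244, edgeR) and -2.50 ± 1.49 for Lyve1 (adjusted p = 0.179, edgeR). Without the shared barcodes, Pf4 fell by 3.84 ± 1.25 (log2 fold change -3.84, adjusted p = 0.0179, edgeR) and F13a1 by 3.80 ± 1.504 (log2 fold change -3.80, adjusted p = 0.0457, edgeR), and Lyve1 had -3.89 ± 1.77 (adjusted p = 0.0791, edgeR). From E13.5 to E15.5, the log2 fold changes of Mrc1, Pf4, F13a1, Lyve1 and Folr2 in saline libraries were below 0 with all libraries and turned to 0.23, 0.81, 1.04, 1.30 and 0.03 without E13.5 saline 1, none of them called. That of Stab1 was -0.05 ± 0.25 (adjusted p = 0.916, edgeR) and turned above 0 in 3 of the 6 fits that left out a library, without E13.5 saline 1, E15.5 saline 1 or E15.5 saline 3 (0.29, 0.04 and 0.06).

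**Figure D1:**
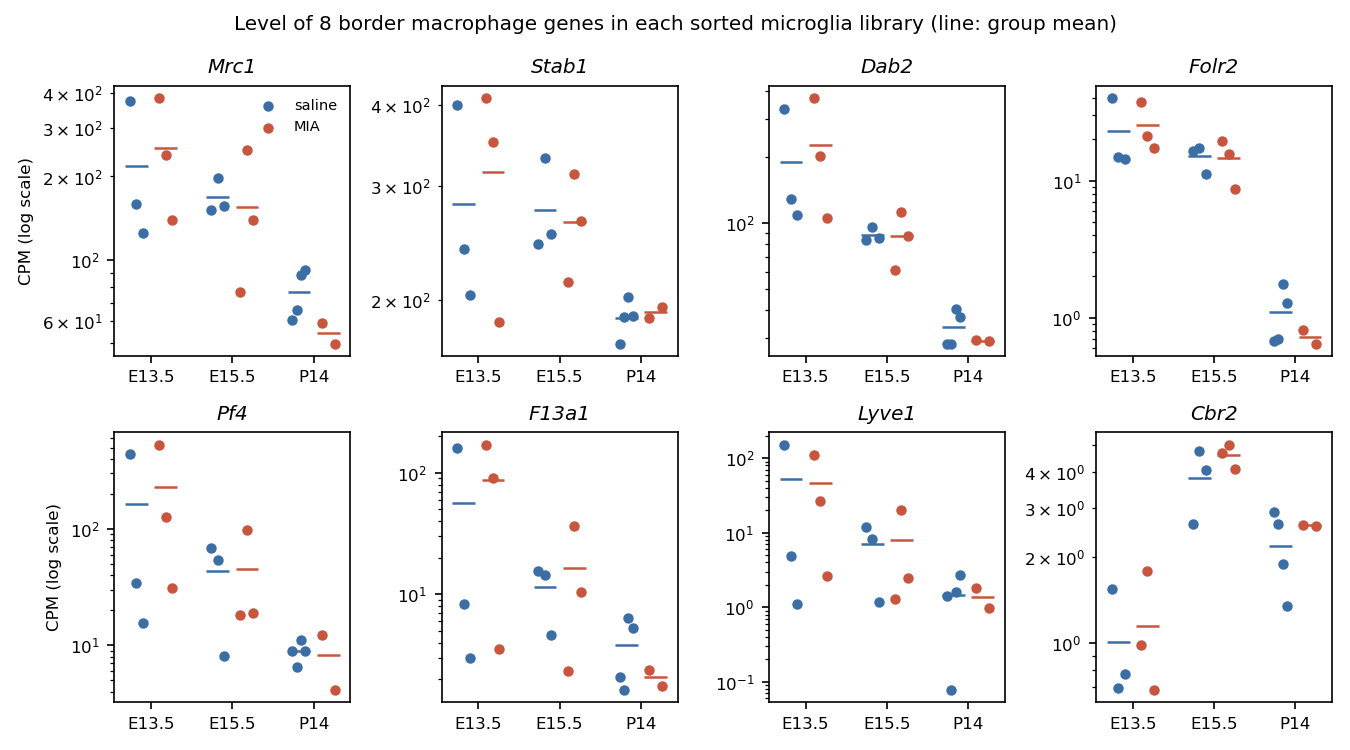
Level of 8 of the genes in each library, in CPM (log axis), by age, with saline in blue, MIA in red and a line at each group's mean. Folr2 drops at P14 to 0.646 to 1.75 CPM, Cbr2 is lowest at E13.5, and Pf4, F13a1 and Lyve1 spread widely at E13.5, where replicate 1 of both treatments is highest.

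Cbr2 was the only one of the 10 genes with a called rise. It had 1.55, 0.691 and 0.779 CPM in saline libraries at E13.5, 2.63, 4.76 and 4.06 CPM at E15.5, and 2.88, 2.63, 1.90 and 1.34 CPM at P14. MIA libraries had 0.984, 1.79 and 0.681 CPM, then 4.66, 4.99 and 4.10 CPM, then 2.61 and 2.58 CPM. Every E15.5 library was above every E13.5 library. The rise was 1.92 ± 0.37 on the log2 scale after saline (adjusted p = 0.00274, edgeR) and 2.14 ± 0.40 after MIA (adjusted p = 0.00186, edgeR), and the saline call held whichever library was left out (log2 fold changes of 1.75 to 2.34). These levels rest on 7 to 72 UMIs per library at E13.5 and 68 to 265 at E15.5. From E15.5 to P14 Cbr2 fell after saline (log2 fold change -0.97 ± 0.33, adjusted p = 0.0226, edgeR), a call that was lost in 4 of 7 fits that left out a library (log2 fold change -0.74 without E15.5 saline 2). After MIA the same step missed the threshold (log2 fold change -0.97 ± 0.40, adjusted p = 0.0685, edgeR).

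Cd163 and Clec10a rested on few UMIs in most libraries. Clec10a had 5.16, 0.489 and 0.4996 CPM in saline libraries and 5.34, 3.25 and 0.444 CPM in MIA libraries at E13.5, from 17 to 110 UMIs, and was highest in replicate 1 of both treatments. It had at most 0.881 CPM in any library of E15.5 or P14. Cd163 had 0 UMIs in E15.5 saline 3, MIA 1 and MIA 3, which allows up to 0.0708, 0.0527 and 0.181 CPM, and its highest level was 2.11 CPM, from 15 UMIs, in E13.5 MIA 1. Neither gene was called between ages after saline or after MIA.

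In the saline libraries 1 of the 10 genes was called from E13.5 to E15.5 (Cbr2, higher) where 20.6% of 15121 genes tested were called (10.7% higher and 9.86% lower). Of the 10, 8 had log2 fold changes below 0, and their median was -0.87 against 0.04 over all genes. Without both E13.5 libraries of replicate 1 the median was 0.55 and 2 of 10 were below 0. From E15.5 to P14, 5 of the 10 were called lower and none higher, where 48% of the genes were called, 23.9% lower and 24.2% higher. All 10 were below 0, with a median of -1.68 against 0.03 over all genes. Without the shared barcodes 7 were called lower, where 25.1% of 15038 genes were. The MIA libraries are other samples. There, 1 gene was called higher and 1 lower from E13.5 to E15.5 (Cbr2 and Dab2), where 30.3% of genes were called (16.4% higher and 14% lower), with a median of -1.12 against 0.06. Without E13.5 MIA 1, log2 fold changes were -0.23 for Mrc1, -0.68 for Pf4, -1.34 for F13a1, -0.63 for Lyve1, -0.35 for Folr2, -0.77 for Dab2 and 0.03 for Stab1. That of Cbr2 stayed at 1.79 or above in every fit that left out a library. From E15.5 to P14, 3 were called lower (Mrc1, Dab2 and Folr2), where 38.1% of genes were called (17.8% higher and 20.3% lower), with a median of -1.69 against -0.03. A fit with the replicate number as a block added Pf4 (log2 fold change -3.65, adjusted p = 0.0277, edgeR) and Cbr2 (log2 fold change -1.12, adjusted p = 0.0294, edgeR) to that last comparison, where it called 20.9% of genes lower. Removing cells with markers of neurons, red blood cells or blood myeloid cells left the saline counts at 1 higher and 5 lower, where 12% of genes were called higher from E13.5 to E15.5 and 24.3% lower from E15.5 to P14. After MIA it raised the count from E15.5 to P14 from 3 to 5 lower, where 18.8% of genes were called lower, adding Cbr2 (log2 fold change -1.14, adjusted p = 0.0308, edgeR) and Stab1 (log2 fold change -0.76, adjusted p = 0.0392, edgeR). E15.5 MIA 1 held 1094 neuron-marker cells of 5803.

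**Figure D2:**
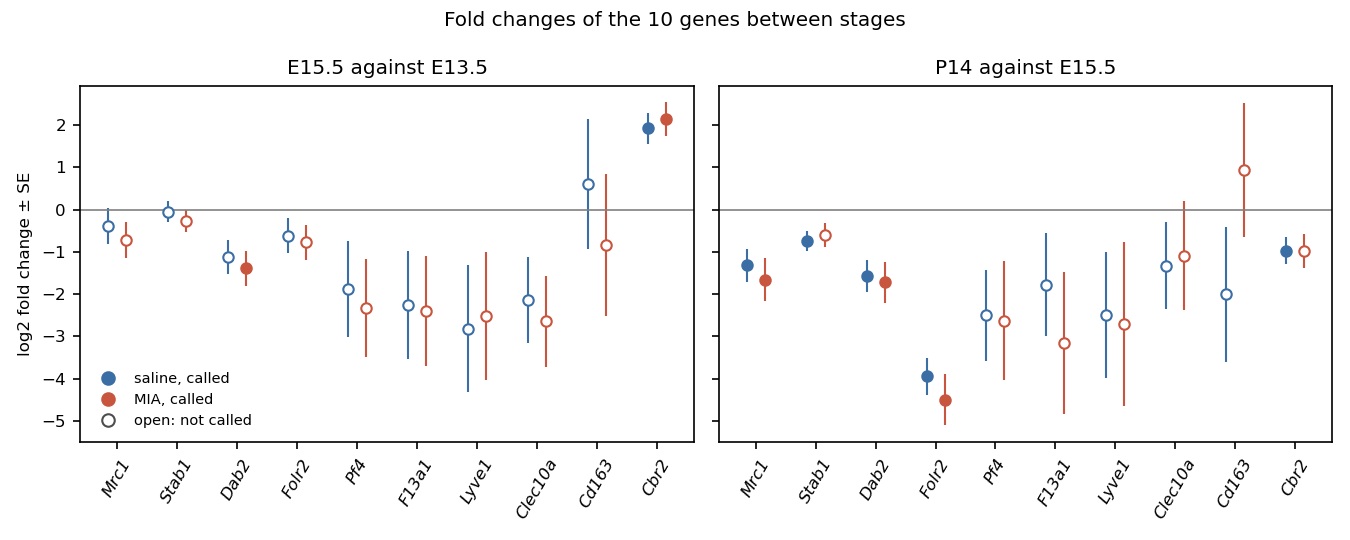
Log2 fold change ± SE of each of the 10 genes from E13.5 to E15.5 and from E15.5 to P14, in saline (blue) and MIA (red) libraries, with filled symbols for adjusted p under 0.05 (edgeR). Cbr2 is the only gene with a called rise, and from E15.5 to P14 all values are below 0 except Cd163 after MIA at 0.94.

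No border macrophage gene was called between MIA and saline at any age. At E13.5 none of 9 tested members (Cd163 was not tested) and 0% of 12994 genes were called by edgeR, with 101 genes at an unadjusted p under 0.05 and 2 genes called by DESeq2. At E15.5 none of 10 members and 0% of 14020 genes were called, with 54 genes at an unadjusted p under 0.05 and 0 by DESeq2. At P14 none of 9 members (Clec10a was not tested) and 0% of 13640 genes were called, with 417 genes at an unadjusted p under 0.05 and 1 by DESeq2. The members' medians were 0.21, 0.03 and -0.10 on the log2 scale at the 3 ages. Mrc1 differed by 0.21 ± 0.43 at E13.5, by -0.12 ± 0.41 at E15.5 and by -0.47 ± 0.17 at P14 (log2 fold changes, adjusted p = 0.992 at P14 by edgeR). Both P14 MIA libraries (59.4 and 49.9 CPM) lay below all 4 P14 saline libraries (60.8 to 92.1 CPM). The nearest were saline 1 and 2 at 60.8 and 65.7 CPM, and the higher values, 88.3 and 92.1 CPM, were the female and male libraries of replicate 3. How many of all genes separated in this way was not counted. Cd163 at P14 had 3, 1, 4 and 1 UMIs in the saline libraries and 11 and 34 in the MIA libraries (log2 fold change 3.00 ± 0.69, adjusted p = 0.992, edgeR). The change of the MIA effect between ages was not called for any member or any other gene (edgeR), with 89 genes at an unadjusted p under 0.05 between E13.5 and E15.5 and 181 between E15.5 and P14, and 0 members by DESeq2. In simulated counts for MIA against saline at E15.5, 0% of 200 genes changed 2-fold were found, so changes of that size were not detectable there by the test without a replicate block. For the same comparison 63.5% were found at E13.5 and 68% at P14. For the change of the MIA effect, 14.5% were found between E13.5 and E15.5 and 7.5% between E15.5 and P14. The changed genes were drawn from all genes tested. These rates thus need not hold for the members, several of which varied widely between libraries at E13.5. The simulated libraries were also independent, with no tie between same-numbered ones. In each of these comparisons of the real data, the share of genes at an unadjusted p under 0.05 was below 0.05. A calibrated test would give about that share without any change. The test may thus be conservative here, so the lack of calls says little. The cause was not tested.

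To compare the share of cells with each gene across depths, every cell was thinned to 2000 UMIs, which kept 60190 of 67847 cells, and shares were averaged over the 6 libraries of an age (mean ± SD, n = 6, with no test). Mrc1 was found in 21.4% ± 4.7 of cells at E13.5, 17.2% ± 4.0 at E15.5 and 10.1% ± 2.2 at P14. Stab1 was found in 35.7% ± 6.7, 34.1% ± 4.0 and 29.7% ± 1.0, and Dab2 in 20.7% ± 5.3, 13.04% ± 2.1 and 5.25% ± 0.61. Folr2 was found in 3.47% ± 1.26, 2.49% ± 0.54 and 0.117% ± 0.062 of cells. Pf4 was found in 7.81% ± 5.16, 2.41% ± 1.004 and 0.406% ± 0.1102, F13a1 in 3.89% ± 3.84, 0.705% ± 0.399 and 0.125% ± 0.039, and Lyve1 in 2.60% ± 2.93, 0.297% ± 0.233 and 0.0935% ± 0.0354. At E13.5 the libraries ran from 3.098% to 13.01% for Pf4, from 0.340% to 8.498% for F13a1 and from 0.126% to 7.02% for Lyve1, highest in replicate 1 of saline for F13a1 and Lyve1 and in replicate 1 of MIA for Pf4. The SD of Lyve1 was larger than its mean there. Without the shared barcodes the P14 shares were 0.0641% for Folr2, 0.267% for Pf4, 0.0646% for F13a1 and 0.0520% for Lyve1. Cbr2 was found in 0.202%, 0.699% and 0.419% of cells, the only share that was higher at E15.5 than at E13.5. Unthinned, where cells of the embryonic libraries are deeper, Mrc1 was found in 42.9%, 32.8% and 21.04% of cells, Stab1 in 70.4%, 69.3% and 58.1%, and Dab2 in 53.1%, 38.0% and 13.1%.

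Cells with at least 10 UMIs of neuron genes, and more of these than of a set of macrophage genes, give a background for the shares, since neurons should not make these genes. Free RNA and droplets with a neuron and a microglial cell were not told apart. At E15.5, without the shared barcodes and at 2000 UMIs, Mrc1 was found in 0.572% of 1399 such cells (95% exact Clopper-Pearson interval 0.247% to 1.12%) against 17.9% of 19936 other cells. Of the 1399, 869 were in E15.5 MIA 1, where 5 had Mrc1, and the other 3 with Mrc1 were among 140 in E15.5 saline 1. Stab1 was found in 1.57% against 35.6%, Dab2 in 0.858% against 13.4%, Folr2 in 0.0715% against 2.72% and Pf4 in 0.143% against 2.44%. Cd163 and Clec10a were in 0 neuron-marker cells, which allows up to 0.214%, and in 0.0351% of the others, so they could not be told from the background. Lyve1, also at 0, was in 0.276% of the others, close to that limit. At E13.5 Mrc1 was found in 1.35% of 296 neuron-marker cells, 189 of them in MIA 3, against 19.3% of the others, but some shares could not be told from the background at this number of cells. Lyve1 was found in 0.676% of them (0.0819% to 2.42%) against 1.07% of the others, and F13a1 in 0.338% (0.00855% to 1.87%) against 1.55%. Cbr2, Cd163 and Clec10a had 0 such cells, which allows up to 1.01%, against 0.139%, 0.0299% and 0.239% of the others. At P14 there were 53 such cells, none with any member, which allows a share of up to 5.66%. Only the P14 shares of Mrc1 and Stab1 lay above that limit, so those of the other 8 genes could not be told from the background there. Intervals and limits cover counting error only.

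Most cells with Mrc1, Stab1 or Dab2 had no UMI of Ms4a7, another border macrophage gene. Cells were split by P2ry12, a purinergic receptor of microglia, and Ms4a7, which encodes a membrane protein, each with or without a UMI at 2000 UMIs. Cells with P2ry12 and without Ms4a7 made up 68.1%, 82.5% and 98.6% of cells at E13.5, E15.5 and P14. Mrc1 was found in 17.4% ± 2.6 of them at E13.5, 16.2% ± 3.4 at E15.5 and 10.0% ± 2.2 at P14 (n = 6 libraries at each age), and Stab1 in 34.0%, 34.9% and 29.8%. Dab2 was found in 16.6%, 12.3% and 5.07% of these cells and Folr2 in 2.32%, 2.44% and 0.0639%. By treatment, Folr2 went from 3.03% ± 0.41 at E13.5 to 2.34% ± 0.59 at E15.5 after saline (n = 3) and from 1.61% ± 1.04 to 2.54% ± 1.07 after MIA (n = 3). Mrc1 in these cells at P14 was 11.1% ± 1.7 after saline (n = 4) and 7.84% ± 1.13 after MIA (n = 2). The P14 means of Mrc1, Dab2 and Folr2 were the lowest of the 3 ages after saline and after MIA. Pf4, F13a1 and Lyve1 were rare in them, at 3.77%, 1.09% and 0.577% at E13.5 and 0.241%, 0.0400% and 0.0376% at P14. Without the shared barcodes the P14 values were 0.203%, 0.0260% and 0.0202%, and that of Folr2 was 0.0467%.

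Cells with an Ms4a7 UMI numbered 494 at E13.5 (4.76% of cells), 645 at E15.5 (2.96%) and 60 at P14 (0.214%). At P14 only 24 were left without the shared barcodes. Pooled over libraries, they held 53.9%, 65.4% and 55.9% of all Pf4 UMIs at the 3 ages, 56.3%, 60% and 62.5% of F13a1 UMIs and 63.5%, 60.4% and 50.0% of Lyve1 UMIs. Of Mrc1 they held 25.1%, 18.7% and 5.45%, of Dab2 20.97%, 13.7% and 5.08%, of Stab1 16.04%, 9.66% and 1.23% and of Folr2 22.1%, 9.97% and 40.5% (37 UMIs at P14). The pooled values weight the libraries unequally, since E13.5 saline 1 held 296 of the 405 Lyve1 UMIs of its age at this depth but 795 of the 3555 Mrc1 UMIs. By library, the Ms4a7 cells of E13.5 held a median of 51.7% of Lyve1 UMIs (25% to 69.3%), 40.6% of F13a1 UMIs (14.3% to 68.2%), 46.7% of Pf4 UMIs (32.1% to 65.3%) and 26.9% of Mrc1 UMIs (10.9% to 53.2%), and these ranges overlapped. At E15.5 the ranges of Pf4 (42.7% to 76.2%) and Mrc1 (8.80% to 25.3%) did not overlap, and that of Lyve1 ran from 0% to 92.1% (median 47.6%). Without the shared barcodes, Lyve1 ran there from 16.7% to 100% (median 73.9%) over the 5 libraries with a UMI of it. At P14 the ranges were 44% to 75.7% for Pf4 and 2.66% to 13.4% for Mrc1. Without the shared barcodes they were 0% to 80% and 0.690% to 13.6%, and overlapped. Mrc1 was found in 57.3%, 67.0% and 58.3% of the Ms4a7 cells and Pf4 in 31.6%, 33.6% and 53.3%. In the 24 P14 cells left without the shared barcodes, Mrc1 was found in 79.2%, Pf4 in 75%, F13a1 in 45.8% against 30% of all 60, and Cbr2 in 45.8% against 18.3%. Of the remaining UMIs those 24 cells held 76.3% for F13a1, 62.1% for Lyve1 and 55.7% for Pf4. For Mrc1 this was 4.24%, for Dab2 2.03%, for Stab1 0.746% and for Folr2 23.8% (of 21 UMIs). Some of the Ms4a7 cells also had P2ry12 (263, 454 and 38), and Mrc1 was found in 57.3% ± 6.1 of those at E13.5 and 71.6% ± 12.3 at E15.5 (n = 6 libraries). Splitting cells by a UMI leaves out markers that were present but not captured, so the classes are not pure cell types.

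**Figure D3:**
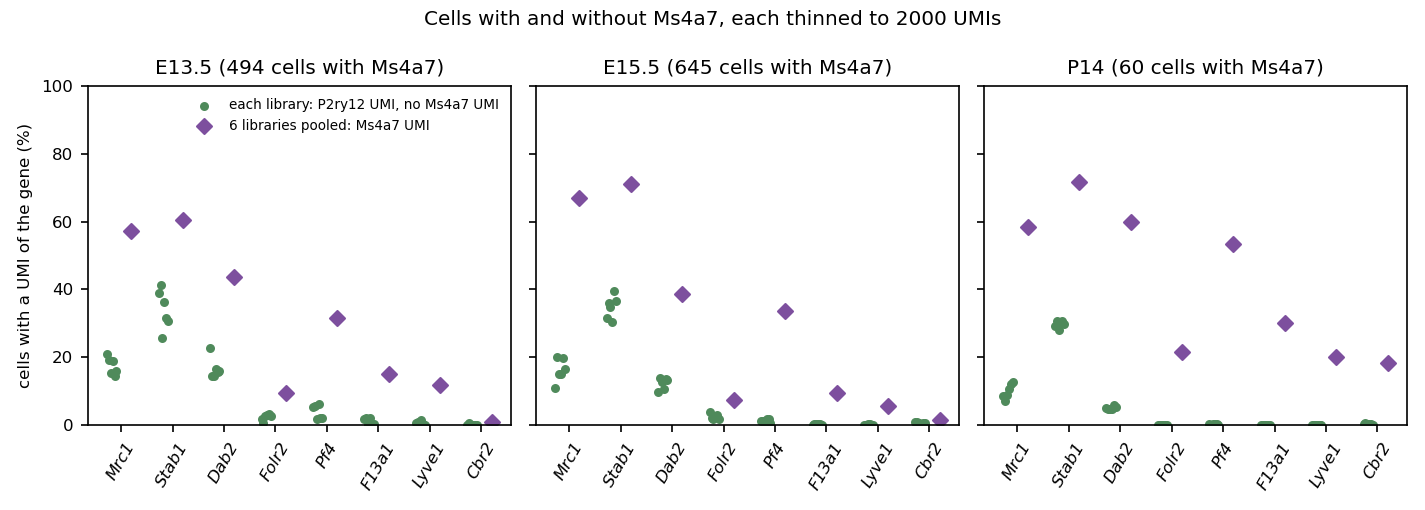
Share of cells (%) with a UMI of each of 8 genes at 2000 UMIs per cell, at the 3 ages. Green points are the 6 libraries' cells with P2ry12 and without Ms4a7, and violet diamonds are all cells with Ms4a7, pooled. Mrc1, Stab1 and Dab2 are present in both kinds of cell, while Pf4, F13a1 and Lyve1 average at most 3.77% in the green points and lie between 5.58% and 53.3% in the diamonds, which include the shared barcodes.

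The members also differed in how far they kept company. At E13.5, 51.3% of all cells had none of the 10 genes at 2000 UMIs, 30.8% had 1, 11.96% had 2 and 3.94% had 3. At P14, 60.2% had none, 34.3% had 1, 5.03% had 2 and 0.328% had 3, and no cell at any age had all 10. Cells with at least 3 members averaged 8.97% ± 4.43 over libraries at E13.5, 4.60% ± 1.497 at E15.5 and 0.461% ± 0.166 at P14 (0.318% ± 0.105 without the shared barcodes, n = 6 at each age). At E13.5 they were 13.7%, 5.61% and 5.15% of the saline libraries and 13.4%, 11.7% and 4.22% of the MIA libraries, again highest in replicate 1 of both and in MIA 2. F13a1 and Lyve1 shared 90 cells at E13.5, 49 at E15.5 and 16 at P14, where their shares alone would give 7.54, 0.558 and 0.0349 cells. Pf4 and F13a1 shared 124, 84 and 29 cells against 16.5, 3.89 and 0.148. Once shared barcodes were removed, 7 P14 cells had F13a1 and Lyve1 (0.0139 from their shares alone) and 14 had Pf4 and F13a1 (0.0612). Mrc1 and Stab1 came close to independence at P14, with 912 cells against 831, and shared 981 against 603 at E13.5.

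For each gene the part of its UMIs that lay in cells with at least 3 of the other 9 genes was taken per library at 2000 UMIs, as the median of the libraries with a UMI of the gene, which were all 6 in all cells. For Lyve1 this was 96.0%, 99.4% and 92.0% at the 3 ages, for F13a1 78.6%, 71.6% and 80.4%, and for Pf4 62.5%, 67.4% and 66.9%. For Mrc1 it was 29.5%, 13.7% and 4.75%, for Dab2 28.1%, 12.6% and 5.40% and for Stab1 11.6%, 5.79% and 1.201%. With shared barcodes removed, the P14 medians were 90% for Lyve1 (80% to 100%, 29 UMIs in 5 libraries) and 75% for F13a1 (0% to 100%, 38 UMIs in 5 libraries), since P14 saline 3F had no UMI of either at this depth. Over 6 libraries they were 58.6% for Pf4 (0% to 77.5%), 4.55% for Mrc1, 2.17% for Dab2 and 0.807% for Stab1. Unthinned, where more members are detected per cell, the medians of Mrc1 were 74.7%, 48.0% and 11.5%. At 2000 UMIs the values of Mrc1 ranged from 7.12% to 63.9% at E13.5 and from 2.89% to 12.7% at P14. By the medians, most UMIs of Lyve1, F13a1 and Pf4 lay in cells with several members and most UMIs of Mrc1, Dab2 and Stab1 lay outside such cells at this depth. The bar differs by gene. For Lyve1, F13a1 or Pf4 the other 9 hold all of the common Mrc1, Stab1 and Dab2, and each of these lacks itself. Part of the contrast is thus set by the measure. Cells with at least 3 members also grew rarer with age, and the values were not adjusted for that.

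**Figure D4:**
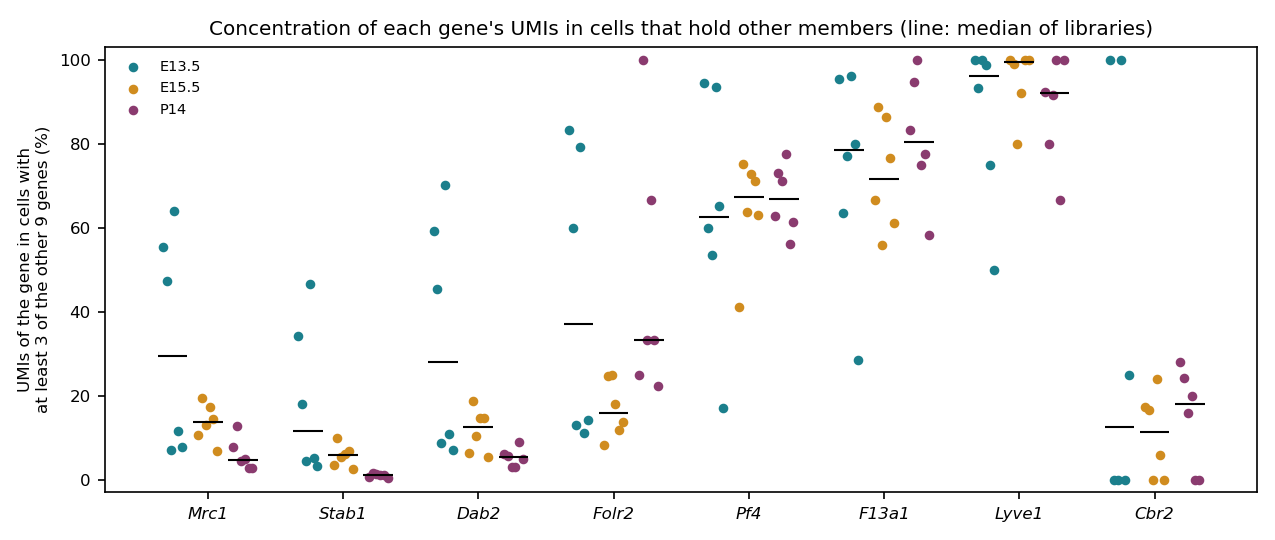
Percent of each gene's UMIs that lie in cells with at least 3 of the other 9 genes, at 2000 UMIs per cell, with a point per library, colours for ages and a line at the median. Lyve1, F13a1 and Pf4 stay high at all ages, while Mrc1, Stab1 and Dab2 fall from 29.5%, 11.6% and 28.1% at E13.5 to 4.75%, 1.201% and 5.40% at P14. The bar differs by gene, since the common genes Mrc1, Stab1 and Dab2 are each left out of their own count.

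Genes that followed the members from cell to cell were ranked by Pearson's r, within a library, between a gene's UMIs (as log(1 + UMIs)) and the number of members detected, averaged over 6 libraries. At E13.5 these were Apoe (r = 0.40), a lipid carrier, Ms4a6c (0.34), Ms4a7 (0.34), Ednrb (0.31), an endothelin receptor, Serpinb6a (0.28), Colec12 (0.28), a scavenger receptor, Maf (0.24), a transcription factor, and Ms4a6b (0.24). At E15.5 Apoe (0.35), Ms4a7 (0.31) and Ms4a6c (0.30) led again, before Tmem176b (0.24), Selenop (0.22), Fcrls (0.22), Ccr1 (0.21) and Tmem176a (0.21). At P14 the highest value was 0.09 (Lgals1), and the leading 8 changed when the shared barcodes were removed (highest 0.06, Fcrls). These are descriptions over cells that share a library, with no test.

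Other genes of border macrophages were called in both directions. Their summed level after saline was 1633 to 2524 CPM at E13.5, 1763 to 2290.1 CPM at E15.5 and 2453 to 2578 CPM at P14, where every library lay above those of E15.5. After MIA it was 1624 to 2663, 1536 to 2305 and 2265 to 2354 CPM, and the ranges of E15.5 and P14 overlapped. Of 19 such genes, all tested, where 10.7% of all genes were called higher and 9.86% lower, 1 was called higher (Hpgd, a prostaglandin-degrading enzyme, log2 fold change 0.63) and 1 lower (Timd4, a phosphatidylserine receptor, log2 fold change -2.43) from E13.5 to E15.5 in saline libraries, and the call of Timd4 was lost in 4 of 6 fits that left out a library. From E15.5 to P14, where 24.2% of all genes were called higher and 23.9% lower, 2 were called higher and 9 lower. The 3 with the largest absolute change were all lower, Ms4a4a (log2 fold change -3.68), Fcna (log2 fold change -3.39), a ficolin, and Timd4 (log2 fold change -3.38). Timd4 rested on very low levels, 0.0472 to 0.284 CPM at E15.5 and 0 to 0.0672 CPM at P14 in saline libraries. Its call for this step was lost in 1 of 7 fits that left out a library (log2 fold changes of -5.96 to -2.98). The list's median log2 fold changes were -0.66 and -0.87, against 0.04 and 0.03 over all genes. Unlike the median, the summed level follows the most abundant genes. Hpgd alone averaged 252 CPM at E15.5 and 446 CPM at P14 in saline libraries. The same list had 1 higher and 5 lower, then 1 higher and 8 lower, in the MIA libraries, where 16.4% of all genes were called higher and 14% lower, then 17.8% and 20.3%. Of the 15 microglia genes, 11 were called higher and 0 lower from E13.5 to E15.5, led by Crybb1 (1.94), Sparc (1.93) and P2ry12 (1.00), and 14 higher and 0 lower from E15.5 to P14, led by Tmem119 (1.84), P2ry12 (1.54) and P2ry13 (1.52), all as log2 fold changes in saline libraries. No gene of either list was called between MIA and saline at any age.

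Markers of other cells moved with age as well. From E13.5 to E15.5, 5 of 8 neuron genes were called higher after saline and 8 of 8 after MIA, where 10.7% and 16.4% of all genes were. Cycling genes were called lower in 0 of 6 after saline and 4 of 6 after MIA, where 9.86% and 14% of all genes were (2 and 6 cycling genes without the shared barcodes). From E15.5 to P14 after saline, 23.9% of all genes were called lower and 24.2% higher. There, 8 of 8 neuron genes, 6 of 6 cycling genes, 4 of 6 tested endothelial genes and 2 of 4 tested neutrophil and monocyte genes were called lower. Called higher were 1 endothelial gene, 1 platelet gene (Gp9) and 1 dendritic gene, Siglech, which is also on the microglia list. Of 8 erythroid genes, 0 were called either way. Without the shared barcodes, 2 of 8 erythroid genes were called lower, where 25.1% of all genes were, and 1 neutrophil and monocyte gene higher. Platelet genes summed to 50.3 to 78.3 CPM at P14, nearly all of it from Gp9 (50.1 to 77.5 CPM after saline and 58.6 to 74.1 CPM after MIA). Pf4, which platelets also hold, was at 4.12 to 12.3 CPM there. Ppbp, a platelet chemokine of the list, was at 0 in 5 of 6 libraries. The part of these other cells in the levels of the members was not tested, apart from the removal of marker cells given above.

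Among cycling cells, with at least 2 of 6 cycling genes at 2000 UMIs, Mrc1 and Stab1 were also read, with no test. At E13.5 Mrc1 was found in 20.9% ± 6.1 of 4642 cycling cells and 21.7% ± 5.8 of 5747 others, and Stab1 in 34.0% ± 4.8 and 36.7% ± 8.4 (n = 6 libraries). At E15.5 Mrc1 was found in 15.6% ± 3.9 of 2943 cycling cells and 17.4% ± 4.0 of 18840 others, and Stab1 in 24.0% ± 5.5 and 35.4% ± 3.8. At P14 cycling cells were few, with 282 in all cells and 82 without the shared barcodes. Of those 82, Mrc1 was found in 30.9% ± 15.0 against 9.95% ± 2.14 of other cells, and Stab1 in 3.70% ± 9.07 against 29.7% ± 1.0 (n = 6 libraries), from 27 and 4 cells with a UMI. All 4 Stab1 cells were in P14 saline 3F, and the other 5 libraries had none. In all cells at P14, Mrc1 was found in 24.1% ± 7.7 of cycling cells and Stab1 in 16.5% ± 16.2.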

How the data were processed

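Sorted microglia were profiled by droplet single-cell RNA-seq (Chromium 3′ chemistry), in 18 libraries. The authors deposited raw UMI counts per gene and cell barcode, made with Cell Ranger 3.1.0 on mm10 per the submitters' processing notes, and the counts were not normalized. Single-nucleus libraries of the series were not analysed here. Barcodes were kept as cells from 500 detected genes upwards if mitochondrial transcripts made up no more than 20% of their UMIs, which left 67847 cells. Doublets were not removed in the main analysis, and removal of the highest doublet scores was an alternative. UMIs were summed per library, filtered with filterByExpr and tested with edgeR 4.0.16 (quasi-likelihood, TMM scaling, R 4.3.3), with Benjamini-Hochberg adjustment over all genes tested and a threshold of 0.05. Changes between ages, and the change of the MIA effect, came from 1 model of the 6 group means over 18 libraries, and MIA was tested against saline within the 6 libraries of each age. DESeq2 1.42.0 was an alternative. CPM is UMIs per 1000000 UMIs of a library. Shares of cells were taken after thinning to 2000 UMIs per cell (numpy 2.4.6), with alternatives of 1000 and 4000 UMIs. Barcodes found in several libraries were kept in the main analysis, and removed from all but the library where they held most UMIs in an alternative that was added once the data had been seen.

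The 10 members, the other gene lists and the tests were chosen with earlier results of these data known. All members are named. Of the other lists, up to 3 called genes with the largest fold change per saline comparison between ages are named, and the 8 genes most like the members per age. Same-numbered saline and MIA libraries deviated together at E15.5 (correlations of deviations of 0.230, 0.160 and 0.334), but not in all pairs at E13.5 (0.151, 0.00133 and 0.313) or P14 (0.213 and -0.0555). With only 2 MIA libraries at P14 their deviations are opposites, so the P14 values cannot show pairing. Whether same-numbered libraries are paired was not tested, and the main fits took them as unpaired. On simulated counts with 200 genes, drawn from all those tested, changed 2-fold, the edgeR test found 47% for saline E15.5 against E13.5 (14818 genes) and 49% for saline P14 against E15.5 (14821 genes).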

Additional observations from a re-analysis of the deposited data

Results flagged for a closer look

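The share of cells with a Cd163 UMI at 2000 UMIs per cell was 0.0376% in P14 saline 1 and 0% in P14 saline 2, 3F and 3M. A nonzero value beside 3 values of 0 is always set apart by a gap measured against the range, so this says little about the library. Before thinning, Cd163 had 3, 1, 4 and 1 UMIs in the P14 saline libraries 1, 2, 3F and 3M, and 3F was highest. It was 1 of 21 measures examined, all in the same 4 P14 saline libraries and so not independent, where chance sets apart about 1 in 20.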

How the results depend on the processing

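The number of members called (1 higher and 0 lower, 0 and 5, 1 and 1, 0 and 3 for saline E15.5 against E13.5, saline P14 against E15.5, and the same steps after MIA) depended on some settings. DESeq2 called 2 members for saline E15.5 against E13.5 (25.4% of all genes). A fit on the compared libraries alone called 8 for saline P14 against E15.5 (49.6% of all genes) and 1 for MIA E15.5 against E13.5 (10.5%). For MIA P14 against E15.5, 5 were called without cells bearing markers of neurons, red blood cells or blood myeloid cells (36.8% of all genes), 5 with the replicate block (39.8%), and 7 with the shared barcodes removed and the replicate block (39.6%), an alternative chosen after seeing the data. Leaving out 1 library at a time gave 1 to 2, 3 to 5, 1 to 3 and 1 to 3 called members. The cause was not tested. The replicate block changed no count of called members in the other comparisons, MIA against saline included (0 members at each age).

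Without both E13.5 libraries of replicate 1, also chosen after seeing the data, the log2 fold changes for saline E15.5 against E13.5 turned to 0.23 for Mrc1, 0.81 for Pf4, 1.03 for F13a1, 1.28 for Lyve1, 0.0288 for Folr2 and 0.29 for Stab1, and that of Stab1 after MIA to 0.0278. Stab1 turned to 0.0154 in saline libraries without the marker cells. Leaving out 1 library at a time, the same log2 fold changes ran from -0.63 to 0.23 for Mrc1, -2.39 to 0.81 for Pf4, -2.79 to 1.04 for F13a1, -3.43 to 1.30 for Lyve1, -0.83 to 0.0292 for Folr2 and -0.19 to 0.29 for Stab1, and from -0.49 to 0.0282 for Stab1 after MIA. Mrc1 in MIA against saline ran from -0.26 to 0.81 at E13.5 and from -0.67 to 0.20 at E15.5. The share of cells with at least 3 members was 16.5% at 4000 UMIs and 37.7% unthinned at E13.5, 1.68% at 1000 UMIs, 10.7% at 4000 UMIs and 23.3% unthinned at E15.5, and 1.56% at 4000 UMIs and 3.22% unthinned at P14.

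Depth limits Cd163 at every age, Clec10a after E13.5, and Lyve1, F13a1 and Folr2 at P14, where few UMIs stand behind a level. Only 2 MIA libraries stand behind every P14 comparison after MIA.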
